A study of Mus musculus with 17 samples.

Results

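The mRNAs of 36 heat-shock genes that act outside the endoplasmic reticulum were followed in mouse brown adipose tissue, the fat that burns fuel to make heat. The genes were taken by symbol from the deposited count table, where all 36 were found among 21982 genes. They comprise 8 cytosolic HSP70 and HSP110 chaperones, 2 cytosolic HSP90 chaperones, 6 co-chaperones of HSP90 or HSP70, 8 cytosolic J-domain proteins, 5 small heat-shock proteins, 5 mitochondrial chaperones and 2 heat-shock factors. RNA came from 17 mice on a C57BL/6 background, 1 library per mouse, that were wild type (Noc+/+) or homozygous knockouts (Noc-/-) of Nocturnin (symbol Noct), a circadian-regulated enzyme. Mice were housed singly without food for 4 h at 22 °C or at 6 °C, which gave 4 wild types (3 female, 1 male) and 4 knockouts (1 female, 3 male) at 22 °C, and 5 wild types (4 female, 1 male) and 4 knockouts (1 female, 3 male) at 6 °C. Labelled ages ran from 11.14 to 23.57, with no unit in the labels. The questions were how these genes respond to the cold in each genotype and whether the genotypes differ.

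Heat-shock chaperones bind unfolded or unstable proteins and use ATP, or partner proteins that use ATP, to keep them soluble and help them fold. HSP70 takes its clients from J-domain proteins, HSP90 completes the folding of kinases and receptors with its co-chaperones, small heat-shock proteins hold clients without ATP, and a separate set works in the mitochondrial matrix. Many of the cytosolic members are induced together by heat-shock factors, which bind inverted repeats of a short unit, the heat-shock element, near the start of their target genes.

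Libraries held 18410748 to 47598200 counted reads, of which 43.4% to 57.3% came from mitochondrially encoded genes. Levels are given as CPM, counts scaled to the library size times its TMM factor, which ran from 0.835 to 1.145. Noct was at 91.5 to 457 CPM in wild types and at 3.37 to 34.2 CPM in knockouts. The 10 brown adipocyte markers were detected in every library and summed to 10840.0 to 18080.0 CPM, while 15 skeletal muscle markers summed to between 21.6 and 1236 CPM. Wild-type replicate 2 at 22 °C, the 1 male of its group, stood apart from the other 3: the cold-induced coactivator Ppargc1a was at 493 CPM there, against 92.4 to 116 CPM. It was also the highest library of its group for 22 of the 24 members that rose in wild type, against 28.2% of all genes tested. The count of members called higher in wild type is therefore given below with and without it. The counts of members that doubled or did not overlap include it.

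Promoters were searched for the unit that heat-shock factors are known to bind. RefSeq windows (build GRCm38.p6, 250 bases before to 50 after each start) were given for 30 of the 36 members and were searched for 2 inverted units, GAANNTTC or TTCNNGAA, each of which reads the same on both strands, and for 3 alternating units, which contain overlapping pairs. A pair occurred in 15 of the 30 members (50%), against 17.0% of all 27025 genes in the promoter table. A run of 3 units occurred in 5 members (16.7%), against 0.662% of all genes. In Chordc1 and Hsph1 the runs lay at or just after the start. The windows below come from members whose matches lay before the start, each on the strand of its gene from 5′ to 3′, with the units in capitals. Hspa1a stands for the inducible HSP70 pair, Hspb1, Dnaja1 and Dnaja4 for other members that rose, Hspe1 for the mitochondrial chaperonins, and Dnajb6 for a member that carries 3 units and did not pass the test in either genotype.
Hspa1a: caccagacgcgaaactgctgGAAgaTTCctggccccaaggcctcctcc
Hspb1: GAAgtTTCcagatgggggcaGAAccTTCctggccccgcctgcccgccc
Dnaja1: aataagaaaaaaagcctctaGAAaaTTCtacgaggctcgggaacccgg
Dnaja4: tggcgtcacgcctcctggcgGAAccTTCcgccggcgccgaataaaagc
Hspe1: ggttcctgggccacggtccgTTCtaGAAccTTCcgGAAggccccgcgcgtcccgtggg
Dnajb6: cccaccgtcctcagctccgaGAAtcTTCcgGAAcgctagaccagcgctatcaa
The windows lie at chr17:34972233-34972280 (minus strand, pair 104 to 97 bases before the start), chr5:135887802-135887849 (plus, 97 to 90, with a further pair at the head of the window), chr4:40722324-40722371 (plus, 124 to 117), chr9:54699487-54699534 (plus, 52 to 45), chr1:55088039-55088096 (plus, 89 to 72) and chr5:29735832-29735884 (plus, 46 to 34). Hspa1b held the same letters at the same distance from its own start, at chr17:34959315-34959362. The Hspe1 window is also the Hspd1 promoter read from the other strand, since these 2 genes are transcribed away from each other, and its run of 4 units lay 144 to 127 bases before the Hspd1 start. Dnaja1 and Dnaja4 also had windows at other starts, and those held no match. The windows of Dnajb1, which also rose, held no match. A match in these letters is a description and not a measured binding site. Pairs occurred in 11 of the 20 members with a window that rose in wild type (55.0%) and in 4 of the 10 that were not called higher in either genotype (40.0%).

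Cold for 4 h raised 24 of the 36 members in wild-type brown fat and lowered none. With edgeR's quasi-likelihood test, 14.3% of the 12486 genes tested were higher and 13.3% lower in the same comparison. The median log2 fold change was 0.76 over the members and -0.03 over all genes tested, and 16 members more than doubled. Between the 5 cold and the 4 control libraries, 20 members were higher with no overlap, against 13% of all genes tested. Hspa1a is among the 24, the 16 and the 20, although it entered the test through its cold libraries. The members were chosen with earlier results of these data known, so these shares are a description and not a test of the set. The members summed to 3024 to 4061 CPM at 22 °C and 5099 to 7432 CPM at 6 °C. In bulk tissue, more cells of a type and more RNA per cell cannot be told apart. Without wild-type replicate 2 at 22 °C, 22 members were higher, and Hspe1 and Hsf2 were no longer called. On the deposited RPKM values, which are scaled to all reads, the median of all genes tested moved to -0.11 with a pseudocount of 1, only 22.0% of called genes were higher against 51.8% of those called on counts, and 21 members were higher and 1, Hspa14, lower.

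The knockouts showed the same kind of response. In them 20 members were higher, against 11.6% of all genes tested, and 1 (Hspa14) was lower, against 10.0% of genes. All 20 were also among the 24 of wild type. The median log2 fold change was 0.65 over the members and -0.02 over all genes, 10 members more than doubled, and 18 were higher with no overlap between groups, against 10.8% of genes. The limits given for wild types, on Hspa1a and on the choice of members, hold here too. The sum over members went from 3231 to 3490 CPM at 22 °C to 4293 to 6495 CPM at 6 °C. On RPKM values with a pseudocount of 1, 17 members were higher and 1, Hspa14, lower. There 41.3% of all called genes were higher, against 53.6% of those called on counts. With a pseudocount of 0.1, 19 members and 42.5% of called genes were higher.

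**Figure D1:**
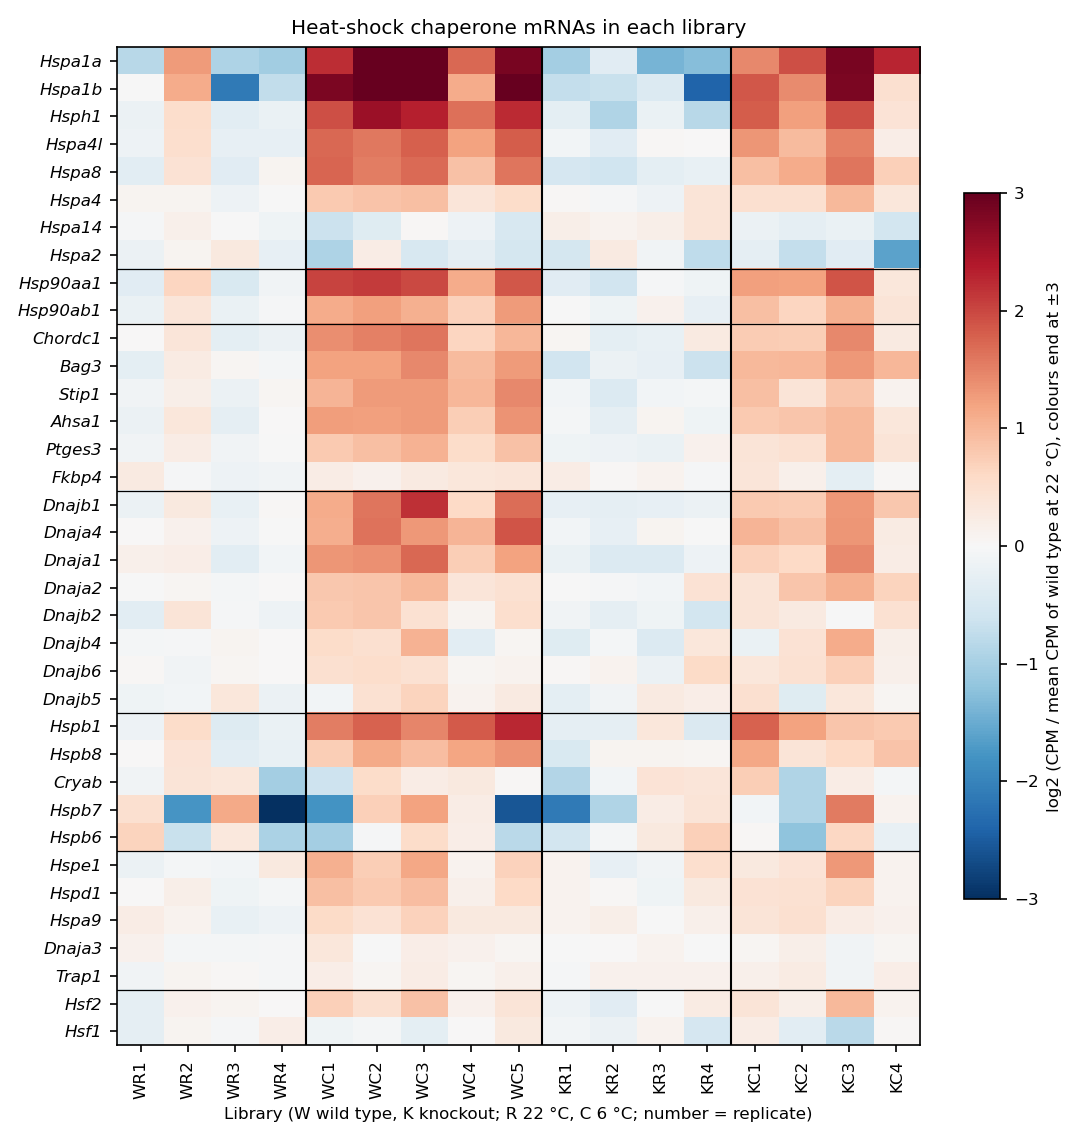
Level of each of the 36 members (rows, grouped by role) in each of the 17 libraries (columns), as log2 of the ratio of its CPM to the mean CPM of wild types at 22 °C. The 9 libraries at 6 °C are red for most members of the upper groups, and wild-type replicate 2 at 22 °C is the reddest of its group for 22 of the 24 members that rose.

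**Figure D2:**
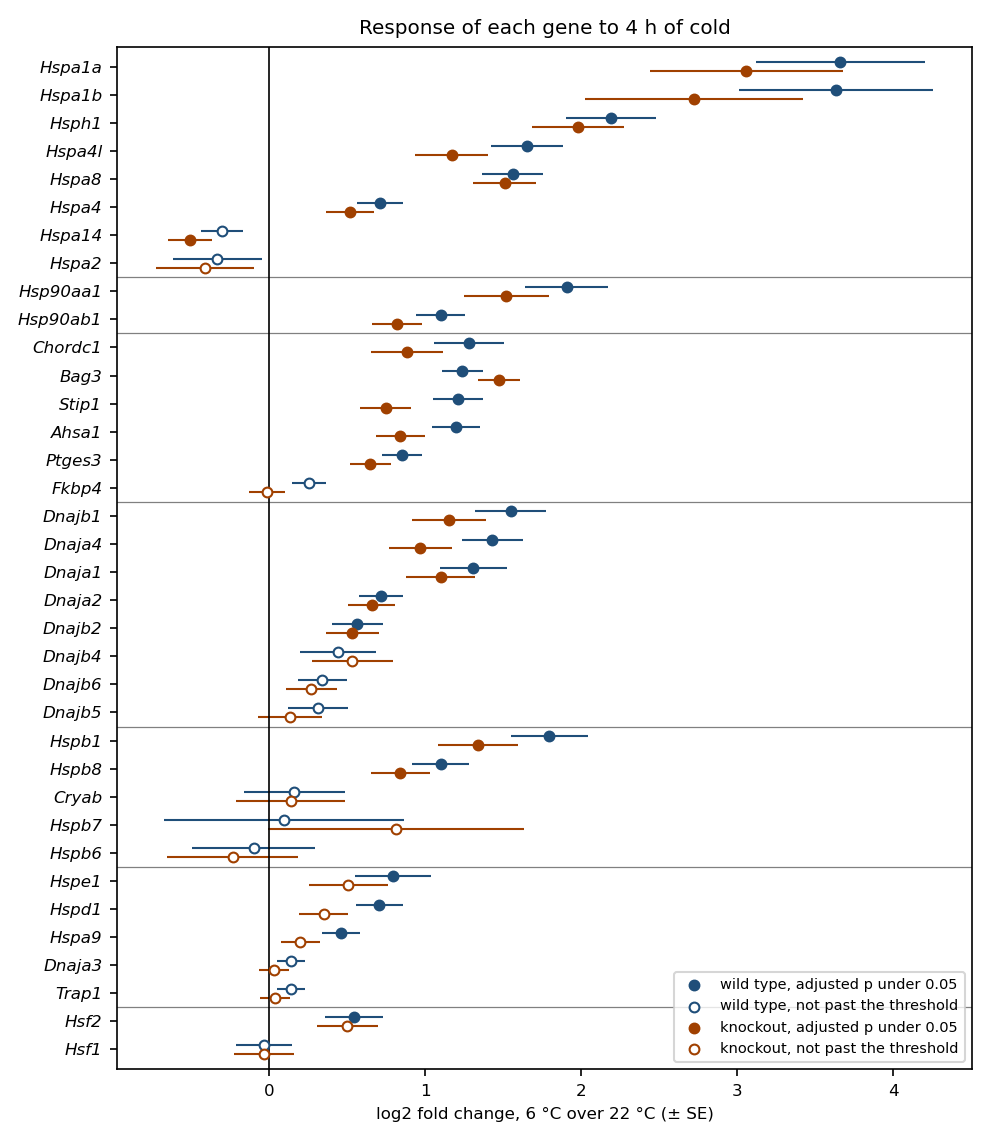
Log2 fold change of each member from 22 °C to 6 °C (x axis, ± SE from the edgeR fit) in wild types (blue) and knockouts (brown), with filled points for adjusted p under 0.05. There are 24 filled points to the right of 0 in wild types and 20 in knockouts, and 1 to the left, Hspa14 in knockouts.

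Among the cytosolic HSP70 and HSP110 chaperones, 6 of 8 rose in each genotype. Hspa1a, an inducible HSP70 that is scarce in unstressed cells, was at 0.228, 0.981, 0.212 and 0.197 CPM in wild types at 22 °C and at 1.87, 6.72, 9.90, 1.33 and 2.92 CPM at 6 °C. In knockouts it was at 0.201, 0.321, 0.153 and 0.167 CPM at 22 °C and at 1.10, 1.55, 2.93 and 1.97 CPM at 6 °C. The groups did not overlap in either genotype, and the highest control was wild-type replicate 2. It rose by 3.66 ± 0.54 (log2 ± SE, adjusted p = 0.000168, n = 4 and 5) in wild types and by 3.06 ± 0.62 (adjusted p = 0.00208, n = 4 and 4) in knockouts. Hspa1a passed the filter on low counts through its cold libraries. At 22 °C, 1 of 4 wild types and 0 of 4 knockouts reached the filter's level of 0.331 CPM, which is taken before TMM scaling. At 6 °C all 5 and all 4 did. Without wild-type replicate 3 at 6 °C, the highest library, the wild-type rise was 3.01 (adjusted p = 8.27e-05). A gene that entered the test in this way had to differ, and the size of the rise rests on 73 reads in the wild-type controls and 25 in the knockout controls.

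Hspa1b, its neighbour on chromosome 17 (chr17:34956436-34959238, against chr17:34969190-34972156 for Hspa1a, both on the minus strand), was at 0.659, 1.44, 0.151 and 0.394 CPM in wild types at 22 °C and at 4.70, 14.7, 13.3, 1.43 and 5.73 CPM at 6 °C. In knockouts the values were 0.402, 0.417, 0.497 and 0.125 CPM and 2.41, 1.78, 4.70 and 0.919 CPM. Wild-type replicate 4 at 6 °C lay just below the highest control, and the knockout groups did not overlap. The fitted rises were 3.63 ± 0.62 (adjusted p = 0.000513) and 2.72 ± 0.70 (adjusted p = 0.0104). The open reading frames of the 2 genes are 99.43% identical, so the split of reads between them is uncertain. Reads that match both genes may also have been left out of the counts, in which case both levels and their sum are too low. Their sum rose by 3.66 ± 0.55 in wild types (adjusted p = 0.000183) and by 2.87 ± 0.60 in knockouts (adjusted p = 0.0028). On log2(RPKM + 1), a scale that understates changes of low genes, the knockout calls of Hspa1a (0.56, adjusted p = 0.0841 from limma) and Hspa1b (0.63, adjusted p = 0.156) were lost. In the reads as counted, both were far below Hspa8 even at 6 °C, with the same limit on the level of the pair. The summed RPKM of the pair over that of Hspa8 was 0.00163 to 0.00652 in wild types at 22 °C and 0.00537 to 0.0268 at 6 °C. In knockouts it was 0.00122 to 0.00403 and 0.00557 to 0.00909.

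Hspa8, the constitutive HSP70 of the cytosol, followed Hsp90ab1 and Hspa9 in RPKM, with group means of 72.2 to 270.1. It was at 332, 558, 329.8 and 442 CPM in wild types at 22 °C and at 1387, 1207, 1353, 768 and 1270.0 CPM at 6 °C, and at 291, 274, 340.1 and 355 CPM and 771, 893, 1261 and 680.3 CPM in knockouts. Neither pair of groups overlapped, and replicate 4 was the lowest cold library in each genotype. The rises were 1.56 ± 0.20 (adjusted p = 5.25e-05) and 1.51 ± 0.20 (adjusted p = 0.000109). Per length, the ratio of Hspa8 to the mitochondrial HSP70 gene Hspa9 was 0.307 to 0.55 in wild types at 22 °C and 0.675 to 1.12 at 6 °C, and in knockouts 0.261 to 0.366 and 0.628 to 1.15.

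Hsph1, an HSP110 that frees HSP70 of its nucleotide, was at 49.5, 81.4, 44.9 and 49.3 CPM in wild types at 22 °C and at 216, 332, 282, 176 and 266 CPM at 6 °C. The knockout values were 45.9, 29.9, 49.4 and 31.7 CPM and 197, 132, 215 and 74.7 CPM. The groups were apart in both genotypes, with knockout replicate 4 the lowest of the cold libraries. It rose by 2.19 ± 0.29 (adjusted p = 7.01e-05) and by 1.98 ± 0.29 (adjusted p = 0.00023). Hspa4l, another HSP110, went from 52.8, 83.5, 49.4 and 49.8 CPM to 193, 178, 205, 136 and 207 CPM in wild types and from 55.7, 46.4, 60.7 and 59.2 CPM to 148, 114, 169 and 67.6 CPM in knockouts. Again the groups did not overlap, with rises of 1.65 ± 0.23 (adjusted p = 0.000101) and 1.17 ± 0.23 (adjusted p = 0.00194). Hspa4, the remaining HSP110 gene, rose less, by 0.71 ± 0.15 and 0.52 ± 0.15, and its knockout call was lost when knockout replicate 2 or 3 at 22 °C or replicate 3 at 6 °C was left out (adjusted p up to 0.079), and within the majority sex (adjusted p = 0.0748).

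The other 2 HSP70 genes did not rise. Hspa14, a ribosome-associated HSP70, was at 10.4, 11.8, 10.5 and 9.76 CPM and 6.80, 8.24, 10.9, 9.59 and 7.61 CPM in wild types, and at 12.01, 11.4, 11.96 and 13.9 CPM and 9.42, 8.78, 9.27 and 7.25 CPM in knockouts. The knockout groups did not overlap and the wild-type groups did. It fell by 0.50 ± 0.14 in knockouts (adjusted p = 0.0174), the only fall among the members, and was -0.30 ± 0.13 in wild types (adjusted p = 0.108). The knockout call was lost without replicate 4 at 6 °C (-0.40, adjusted p = 0.0572). Hspa2, best known from the testis, lay between 0.46 and 1.72 CPM in all libraries and did not pass (-0.33 and -0.41).

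Both cytosolic HSP90 genes rose in both genotypes. Hsp90aa1, the inducible form, was at 105, 207, 95.9 and 122 CPM in wild types at 22 °C and at 537, 567, 520.4, 288 and 484 CPM at 6 °C. In knockouts it was at 104, 89.0, 130.0 and 122 CPM and 309.9, 306, 490.2 and 168 CPM. The groups were apart in both, and replicate 4 was the lowest cold library in each genotype. The rises were 1.91 ± 0.27 (adjusted p = 0.000101) and 1.52 ± 0.27 (adjusted p = 0.00084). Hsp90ab1, the constitutive form and the member with the highest RPKM, was at 543, 792, 545 and 604 CPM and 1341, 1459, 1305, 1001 and 1508 CPM in wild types, and at 620.1, 572, 674 and 527 CPM and 1153, 964, 1296 and 807 CPM in knockouts. No cold library overlapped its controls. Its rises were 1.10 ± 0.16 (adjusted p = 0.000122) and 0.82 ± 0.16 (adjusted p = 0.0018). The RPKM ratio of the inducible to the constitutive form was 0.134 to 0.199 in wild types at 22 °C and 0.22 to 0.306 at 6 °C, which did not overlap, while in knockouts it was 0.119 to 0.177 and 0.159 to 0.289, which did.

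**Figure D3:**
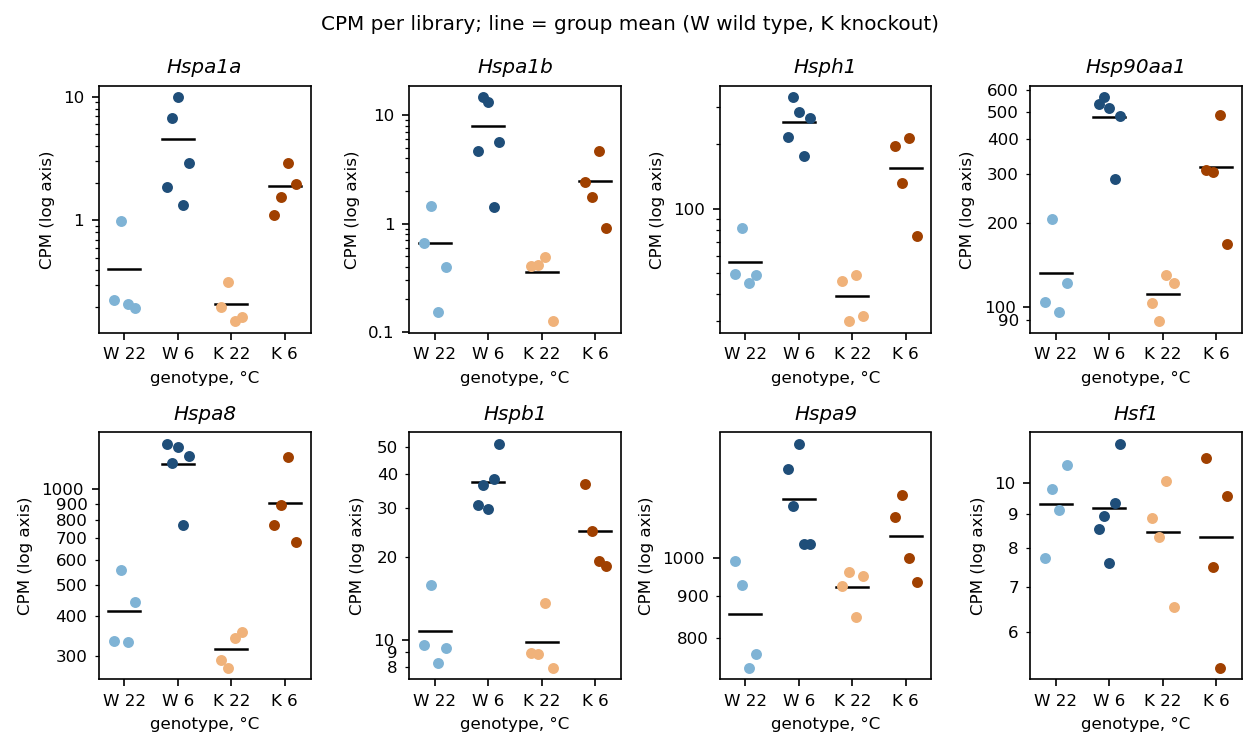
CPM of 8 members in each library (points, log axis), with the mean of each group as a line, for wild types (W) and knockouts (K) at 22 °C and 6 °C. For Hspa1a, Hsph1, Hsp90aa1, Hspa8 and Hspb1 the cold points lie above all controls of the same genotype, while Hsf1 shows no such separation.

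Of the 6 co-chaperones, 5 rose in each genotype. Bag3, which couples HSP70 to autophagy, was at 32.3, 47.3, 41.4 and 38.0 CPM and 92.0, 91.7, 107, 76.2 and 96.7 CPM in wild types at 22 and 6 °C, and at 26.7, 35.2, 33.4 and 25.2 CPM and 78.0, 78.7, 98.4 and 79.9 CPM in knockouts. The cold libraries lay well clear of the controls, and the rises were 1.24 ± 0.13 (adjusted p = 1.71e-05) and 1.48 ± 0.14 (adjusted p = 8.91e-06), the lowest adjusted p of any member in each genotype. Of the 20 members that rose in both genotypes, Bag3 alone had the larger fitted rise in knockouts. The difference between its responses did not pass (0.24 ± 0.18).

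Stip1 (HOP), which links HSP70 to HSP90, was at 41.3, 50.5, 39.6 and 46.5 CPM and 89.7, 108, 108, 88.7 and 121 CPM in wild types, and at 41.8, 33.4, 41.8 and 42.6 CPM and 82.9, 58.0, 79.8 and 47.9 CPM in knockouts. The groups were apart in both genotypes, with rises of 1.21 ± 0.16 (adjusted p = 6.35e-05) and 0.75 ± 0.16 (adjusted p = 0.00347). Ahsa1, which activates the ATPase of HSP90, was at 33.4, 47.5, 31.1 and 37.7 CPM and 89.3, 88.2, 91.3, 62.5 and 95.4 CPM in wild types, and at 35.9, 31.1, 39.4 and 34.4 CPM and 64.4, 67.0, 74.0 and 47.3 CPM in knockouts. It too was separated between temperatures, by 1.2 ± 0.15 (adjusted p = 5.86e-05) and 0.84 ± 0.16 (adjusted p = 0.0013). Chordc1, an HSP90 partner with zinc-binding domains, was at 41.8, 53.1, 33.6 and 36.7 CPM and 109, 117, 125, 64.3 and 82.3 CPM in wild types, and at 42.8, 33.7, 35.6 and 49.96 CPM and 69.5, 69.3, 112 and 50 CPM in knockouts. Its groups did not overlap, by a narrow margin in knockouts, where replicate 4 at 6 °C and replicate 4 at 22 °C differed by less than 0.1 CPM, and the rises were 1.28 ± 0.22 (adjusted p = 0.000574) and 0.89 ± 0.23 (adjusted p = 0.0108). Ptges3 (p23), which stabilises closed HSP90, rose by 0.85 ± 0.13 and 0.65 ± 0.13. Fkbp4, an immunophilin of steroid receptor complexes, did not pass (0.26 ± 0.11 and -0.01 ± 0.11).

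The cytosolic J-domain proteins, which hand clients to HSP70, rose in 5 of 8 cases in each genotype. Dnajb1, the main HSP40 of the heat-shock response, was at 15.2, 20.9, 14.8 and 17.6 CPM and 36.8, 51.8, 78.1, 25.9 and 55.0 CPM in wild types, and at 14.5, 14.2, 14.4 and 15.2 CPM and 29.3, 29.2, 42.1 and 30.0 CPM in knockouts. All cold libraries exceeded their controls, with rises of 1.55 ± 0.23 (adjusted p = 0.000168) and 1.16 ± 0.24 (adjusted p = 0.00234). Dnaja1 was at 39.1, 40.8, 28.4 and 33.4 CPM and 88.3, 92.2, 117, 58.7 and 81.2 CPM in wild types, and at 30.7, 26.5, 26.6 and 31.9 CPM and 57.2, 53.4, 96.4 and 41.7 CPM in knockouts. The separation held in both genotypes, at 1.31 ± 0.22 (adjusted p = 0.000375) and 1.10 ± 0.22 (adjusted p = 0.00225).

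Dnaja4 was at 12.3, 13.5, 11.1 and 12.2 CPM and 26.2, 38.2, 30.4, 25 and 45.1 CPM in wild types, and at 11.6, 10.4, 13.03 and 12.2 CPM and 24.8, 22.4, 30.7 and 14.5 CPM in knockouts. Its groups were apart and it rose by 1.43 ± 0.20 (adjusted p = 9.19e-05) and 0.97 ± 0.20 (adjusted p = 0.00272). In the GENCODE annotation 44.1% of its exonic bases (chr9:54698873-54716315, plus strand) are also exonic in Wdr61 on the other strand. No source used here says whether the counting used strand, so reads of the 2 genes may not be separated. Overlap with exons of other genes was 19.0% for Hspa1a, 17.0% for Cryab and 10.8% for Dnaja1. Dnaja2 rose by 0.72 ± 0.14 and 0.66 ± 0.15. Dnajb2 rose by 0.57 ± 0.16 and 0.53 ± 0.17, and leaving out single libraries of the genotype took its adjusted p to as much as 0.0582 in wild types (without replicate 1 at 22 °C) and 0.115 in knockouts (without replicate 1 at 6 °C). On RPKM values the Dnajb2 call was lost in wild types (0.31 and 0.36, adjusted p = 0.16 and 0.172 from limma with pseudocounts of 1 and 0.1) and in knockouts (0.38 and 0.46, adjusted p = 0.141 and 0.133), and within the majority sex it was lost in knockouts (adjusted p = 0.0552). Dnajb4, Dnajb5 and Dnajb6 did not pass, at 0.44, 0.32 and 0.34 in wild types and 0.54, 0.14 and 0.27 in knockouts, although the 5 cold wild types were all above the 4 controls for Dnajb6 (7.19 to 9.98 CPM against 6.40 to 7.14 CPM).

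The small heat-shock proteins split into 2 that rose and 3 that did not pass. Hspb1 (HSP25) was at 9.60, 15.8, 8.22 and 9.33 CPM and 30.9, 36.4, 29.8, 38.3 and 51.5 CPM in wild types, and at 8.96, 8.88, 13.6 and 7.91 CPM and 36.8, 24.8, 19.3 and 18.5 CPM in knockouts. Its groups did not overlap, and the rises were 1.80 ± 0.25 (adjusted p = 0.000101) and 1.34 ± 0.26 (adjusted p = 0.00148). Hspb8, the partner of Bag3, had the highest RPKM of the 5 and went from 36.1 to 60.0 CPM to 75.5 to 115 CPM in wild types and from 32.6 to 47.9 CPM to 58.7 to 101 CPM in knockouts, rises of 1.10 ± 0.18 and 0.84 ± 0.19. Hspb6, Hspb7 and Cryab, which are abundant in muscle, were at -0.10 ± 0.40, 0.10 ± 0.77 and 0.16 ± 0.32 in wild types and at -0.23 ± 0.42, 0.81 ± 0.82 and 0.14 ± 0.35 in knockouts, with wide errors.

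Skeletal muscle markers varied between samples along with these 3 genes. The 15 muscle markers summed to 21.6 to 87.6 CPM in 6 libraries, which came from all 4 groups, and to 275 to 1236 CPM in the other 11, with a gap between. Hspb6 was at 10.2 to 16.3 CPM in the 6 and at 20.4 to 39.0 CPM in the 11, and Hspb7 at 0.164 to 0.735 CPM and 0.738 to 4.05 CPM, so that neither overlapped. Cryab overlapped, at 4.37 to 11.6 CPM and 8.23 to 14.8 CPM. Hspb1 (8.96 to 51.5 and 7.91 to 38.3 CPM) and Hspb8 (32.6 to 115 and 36.1 to 102 CPM) covered the same range in both sets of samples. None of the 15 muscle markers passed in either cold response, and none was at 0 in all libraries. With the log2 muscle level as a term in the fit, the SE in wild types was 0.10 in place of 0.40 for Hspb6 and 0.32 in place of 0.77 for Hspb7, with log2 fold changes of -0.15 and 0.13 that did not pass, and Hspb1 rose by 1.81 ± 0.24 (adjusted p = 6e-05). In knockouts that fit gave -0.198 ± 0.105 for Hspb6 (adjusted p = 0.199 from edgeR) and 0.90 ± 0.35 for Hspb7 (adjusted p = 0.0746), which did not pass. Hspb1 rose by 1.32 ± 0.25 there (adjusted p = 0.0012).

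**Figure D4:**
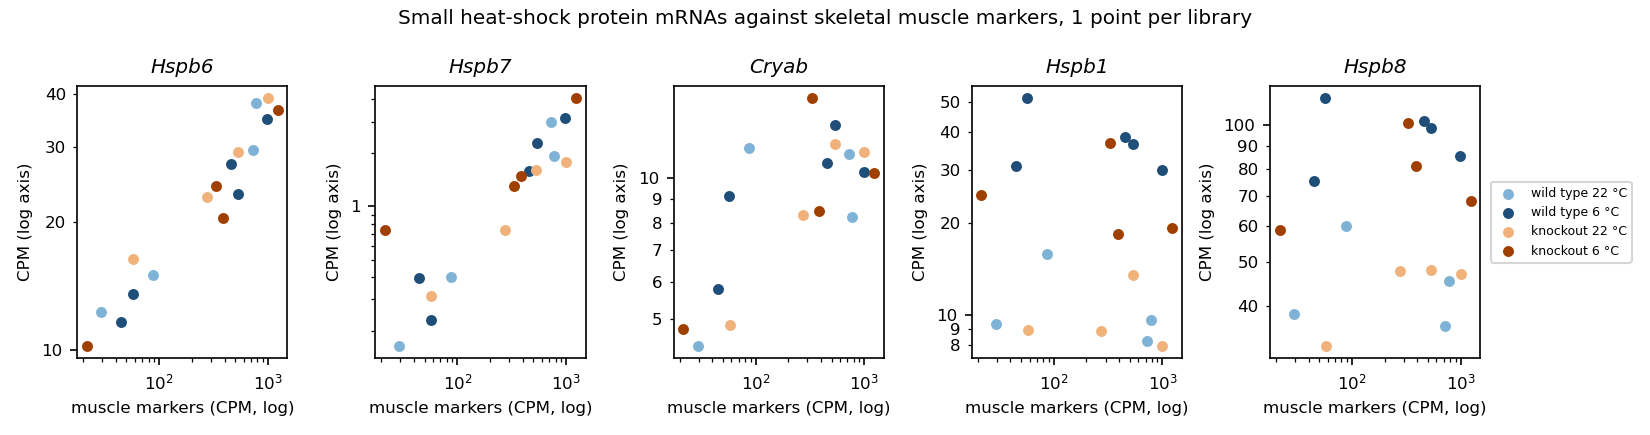
CPM of the 5 small heat-shock protein genes (y axes, log) against the summed CPM of 15 skeletal muscle markers (x axes, log), 1 point per library, coloured by group. Hspb6 lies at 10.2 to 16.3 CPM in the 6 libraries with the lowest muscle sums and at 20.4 to 39.0 CPM in the other 11, while for Hspb1 and Hspb8 every cold library lies above the controls of its genotype.

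The mitochondrial chaperones showed small rises in wild types, where 3 of 5 passed, and none of 5 passed in knockouts. Hspa9 (mortalin), the HSP70 of the matrix and second of the members in RPKM, was at 991, 928, 737 and 766 CPM in wild types at 22 °C and at 1279, 1156, 1374, 1041 and 1041 CPM at 6 °C. In knockouts it was at 926, 963, 849.8 and 951 CPM and 1122, 1190.0, 1001 and 935 CPM. The wild-type groups did not overlap and the knockout groups did. It rose by 0.46 ± 0.12 in wild types (adjusted p = 0.00853) and was 0.20 ± 0.12 in knockouts (adjusted p = 0.273), but the difference between the responses did not pass (-0.26 ± 0.17, adjusted p = 1). On RPKM values the wild-type call was lost (0.26, adjusted p = 0.0952 from limma with a pseudocount of 1).

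The 2 subunits of the mitochondrial chaperonin, which close a folding chamber together, passed in wild types and not in knockouts in the reported fit. Hspd1 (HSP60) rose by 0.71 ± 0.15 in wild types (adjusted p = 0.00252) and was 0.35 ± 0.16 in knockouts (adjusted p = 0.123). In knockouts Hspd1 did pass with edgeR without knockout replicate 4 at 6 °C (0.47, adjusted p = 0.0396) and without wild-type replicate 4 at 6 °C (0.37, adjusted p = 0.047). Hspe1 (HSP10) rose by 0.80 ± 0.24 (adjusted p = 0.0209) and was 0.51 ± 0.25 (adjusted p = 0.165). Their RPKM ratio, Hspd1 over Hspe1, stayed within 3.55 to 6.69 in all 17 libraries. The Hspe1 call in wild types did not survive leaving out any of 5 single libraries (replicate 1, 2 or 3 at 22 °C, or 1 or 3 at 6 °C), with adjusted p up to 0.0556, nor the restriction to the majority sex (0.78, adjusted p = 0.0769). The groups overlapped for both genes in both genotypes, and the differences between the responses did not pass (-0.36 ± 0.22 and -0.29 ± 0.35). Trap1, the mitochondrial HSP90, and Dnaja3, a J-domain protein of the matrix, were near 0 in both genotypes (0.14 ± 0.09 and 0.14 ± 0.09 in wild types, 0.04 ± 0.10 and 0.03 ± 0.10 in knockouts) although both were abundant, at group means of 63.6 to 68.8 RPKM for Trap1 and 46.2 to 52.7 RPKM for Dnaja3.

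Of the heat-shock factors themselves, Hsf2 passed in wild types, in a call that many settings lost, and Hsf1 in neither genotype. Hsf1, the main factor of the acute response and one that is controlled after translation, was at 7.73, 9.79, 9.13 and 10.6 CPM and 8.55, 8.92, 7.61, 9.33 and 11.4 CPM in wild types, and at 8.88, 8.31, 10.1 and 6.54 CPM and 10.9, 7.50, 5.30 and 9.55 CPM in knockouts. All 4 groups overlapped, and the responses were -0.03 ± 0.18 (adjusted p = 0.921) and -0.03 ± 0.19 (adjusted p = 0.945), with 95% intervals of -0.42 to 0.36 and -0.45 to 0.39. Hsf2 was at 7.40, 9.85, 9.46 and 9.07 CPM and 14.7, 12.5, 16.5, 9.79 and 11.6 CPM in wild types, and at 7.98, 7.02, 8.86 and 10.6 CPM and 11.6, 10.2, 17.4 and 9.68 CPM in knockouts. Its groups overlapped in both genotypes. It rose by 0.55 ± 0.19 in wild types (adjusted p = 0.0365), a call that was lost without any of 6 single libraries (adjusted p up to 0.101, without replicate 1 at 22 °C), within the majority sex (0.60, adjusted p = 0.0831) and on RPKM values (0.18, adjusted p = 0.114 from limma with a pseudocount of 1, and 0.30, adjusted p = 0.13, with 0.1). In knockouts Hsf2 was 0.50 ± 0.20 (adjusted p = 0.0754). There it did pass with DESeq2 (0.52, adjusted p = 0.0465). With edgeR it passed without knockout replicate 4 at 22 °C (0.61, adjusted p = 0.0485) and without knockout replicate 4 at 6 °C (0.62, adjusted p = 0.0326).

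Within each cold group most of the rising members were highest or lowest in the same libraries. Wild-type replicate 4 was the lowest of its 5 libraries for 21 of the 24 members that rose in wild type, and for 23.9% of all genes tested. Among cold knockouts, replicate 3 was the highest for 19 and replicate 4 the lowest for 18 of these 24, against 35.3% and 26.5% of all genes tested. Cold knockout replicate 3 also had the highest muscle sum (1236 CPM), the highest mitochondrial share (57.0%) and the lowest TMM factor (0.835) of its group. On RPKM values, which do not use that factor, it was the highest for 15 of the 24 and replicate 4 the lowest for 14, and its sum over members (1516 RPKM) was below that of replicate 1 (1536 RPKM). The part of these properties in the order was not tested. Ppargc1a did not follow in knockouts, where replicate 4 had 1619 CPM and replicate 3 had 1546 CPM. Leaving out single libraries of either genotype left 22 to 25 members higher in wild types and 18 to 21 in knockouts.

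No member passed the test for a difference between genotypes. At 22 °C, 0 of 36 members passed with edgeR, against 0.016% of all genes (2 genes), and 0 with DESeq2. At 6 °C, 0 passed with either tool, against 0.04% of genes (5 genes), and the lowest adjusted p of a member with edgeR was 0.999. For the difference between the cold responses, 0 passed, against 0.00801% of genes (1 gene). At an unadjusted p under 0.05 from edgeR, 2 members were lower in knockouts at 22 °C (Hspa8, -0.52 ± 0.21, and Bag3, -0.48 ± 0.14), against 2.27% of genes, and 0 were higher. The fitted value at 22 °C was below 0 for 25 of 36 members, with a median of -0.11 against -0.002 over all genes.

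At 6 °C, 15 members were lower in knockouts at an unadjusted p under 0.05 and 0 were higher, against 1.59% of genes lower. The fitted value was below 0 for 32 of 36, with a median of -0.33 against 0.00 over all genes. For the difference between the cold responses, 0 members had an unadjusted p under 0.05, against 2.48% of genes, and 32 of 36 fitted values were below 0 (median -0.21). These comparisons share the cold libraries, and the members share the libraries that ran high or low, so they are not separate observations.

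The 15 members were Hspa1a, Hspa1b, Hspa4l, Hspa8, Hsph1, Hsp90aa1, Hsp90ab1, Hspb1, Dnaja1, Dnaja4, Dnajb1, Stip1, Chordc1, Ahsa1 and Ptges3, all of which rose in the cold in both genotypes. The fitted genotype difference of each was below 0 at 22 °C too, and that of Hspa8 was -0.52 at 22 °C and -0.57 at 6 °C. The cold groups overlapped for every one of them except Stip1, at 88.7 to 121 CPM in wild types and 47.9 to 82.9 CPM in knockouts. Its difference was -0.60 ± 0.17 (unadjusted p = 0.002 and adjusted p = 0.999 from edgeR, 95% interval -0.96 to -0.24). The sum of Hspa1a and Hspa1b differed by -1.98 ± 0.52 (adjusted p = 0.945). For the abundant members the intervals at 6 °C were -1.03 to -0.11 for Hspa8, -1.38 to -0.18 for Hsp90aa1 and -0.74 to -0.02 for Hsp90ab1, while for Hspa9 the interval was -0.43 to 0.13 and for Trap1 -0.25 to 0.18. The count of 15 was 10 without wild-type replicate 2 at 6 °C, 11 without knockout replicate 4 at 6 °C, 18 without knockout replicate 3 at 6 °C and 12 without the sex term. Sex was uneven between the genotypes, with 1 male in each wild-type group and 3 in each knockout group, and was a term in the fit.

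**Figure D5:**
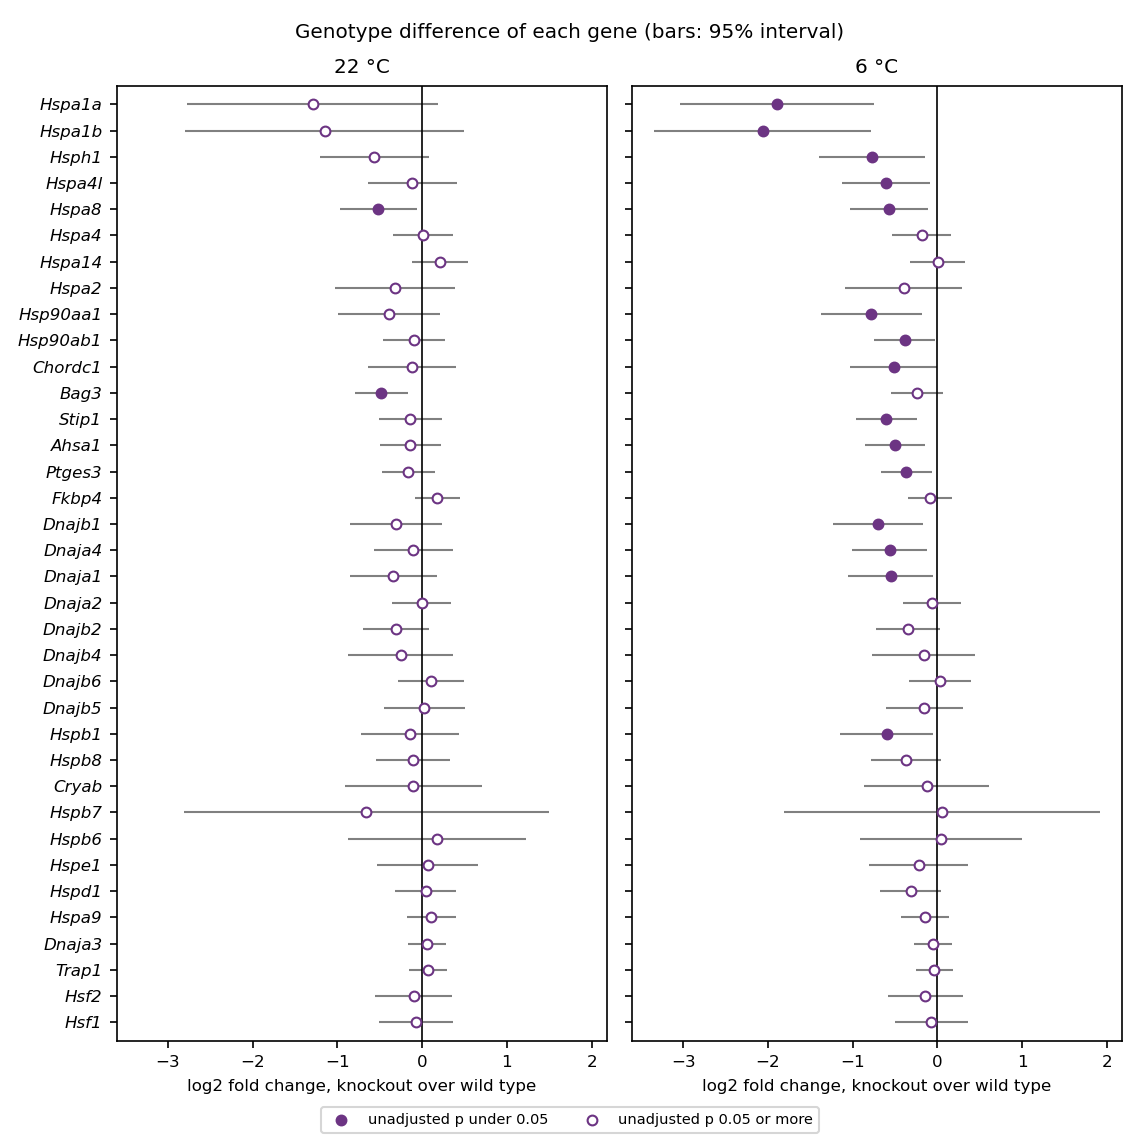
Log2 fold change of each member between knockouts and wild types (x axes, points) at 22 °C (left) and 6 °C (right). Bars are 95% intervals from the SE and 12 residual degrees of freedom, not adjusted for the number of genes. They are not the edgeR test itself: the bar of Chordc1 at 6 °C reaches 0 although its point is filled. Filled points mark an unadjusted p under 0.05, 2 at 22 °C and 15 at 6 °C, and none of the 36 passed after adjustment at either temperature.

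Lists of other chaperone genes were counted in the same tests, in which 14.3% of all genes rose and 13.3% fell in wild types and 11.6% rose and 10.0% fell in knockouts. Of 13 subunits of the cytosolic chaperonin CCT and of prefoldin, which fold actin and tubulin, 7 rose in wild types and 5 in knockouts, and none fell. Cct3 rose by 0.84 ± 0.12 and 0.62 ± 0.13 and Cct7 by 0.72 ± 0.11 and 0.53 ± 0.12. The list's median was 0.42 in wild types and 0.21 in knockouts. Of 21 other co-chaperones of HSP90 and HSP70, 8 rose and 1 fell in wild types and 5 rose in knockouts, led by Fkbp5 in wild types (1.60 ± 0.50), a glucocorticoid-induced immunophilin, and by Cdc37l1 in knockouts (0.70 ± 0.16). Their medians were 0.16 and 0.25.

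Of 16 tested genes for other J-domain and related proteins, 4 rose and 2 fell in wild types and 3 rose and 1 fell in knockouts, with medians of -0.05 and -0.07. Dnajc27, a J-domain protein of the RAS-like GTPase family, rose by 1.36 ± 0.16 and 1.56 ± 0.17. Of 16 other mitochondrial chaperones and proteases, 2 rose and 1 fell in each genotype, a share of rises near that of all genes, with medians of 0.05 and 0.00: Grpel2, a nucleotide exchange factor of mitochondrial HSP70, rose by 0.60 ± 0.12 and 0.58 ± 0.13, Dnajc11 by 0.34 ± 0.09 and 0.27 ± 0.09, and Dnajc28 fell by 0.95 ± 0.12 and 1.05 ± 0.13. Of 10 tested genes known as other targets or regulators of heat-shock factors, 4 rose in wild types and 1 in knockouts, none fell, and Zfand2a rose in both (0.46 ± 0.15 and 0.62 ± 0.16).

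The endoplasmic reticulum chaperones, set beside the members, rose in 6 of 17 cases and fell in 1 in wild types, and rose in 4 and fell in 1 in knockouts, with medians of 0.19 and 0.20. Hspa5 (BiP), the HSP70 of that compartment, rose by 0.73 ± 0.17 and 0.60 ± 0.17, Dnajb9 by 1.09 ± 0.19 and 1.35 ± 0.20, and the disulfide isomerase Pdia4 fell by 0.66 ± 0.13 and 0.79 ± 0.14. No gene of any of these lists passed a test between genotypes with edgeR.

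Markers of brown adipocytes, other cells and tissue handling were measured beside the members. The 10 brown adipocyte markers summed to 10960.0 to 12380.0 CPM at 22 °C and 14350.0 to 18070.0 CPM at 6 °C in wild types, and to 10840.0 to 14460.0 CPM and 13960.0 to 18080.0 CPM in knockouts. Of these, 4 rose and 2 fell in wild types and 3 rose in knockouts. Of 7 endothelial markers 2 rose and 1 fell in each genotype, with sums of 306 to 413 CPM at 22 °C and 396 to 498 CPM at 6 °C in wild types and 362 to 400.2 CPM and 364 to 526 CPM in knockouts. None of the 8 macrophage, 6 fibroblast or 4 smooth muscle markers, nor Alas2, the 1 red-cell marker tested, passed in either genotype. Of 12 tested immediate-early genes, which respond to handling within minutes, 4 rose and 1 fell in each, with medians of -0.71 and -0.15. Atf3, a stress-induced transcription factor, rose by 2.71 ± 0.53 and 3.44 ± 0.57, while the list's sum overlapped between temperatures (196 to 379.7 CPM and 200.4 to 388 CPM in wild types, 58.5 to 349 CPM and 199 to 247 CPM in knockouts). Their part in the chaperone result was not tested.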

How the data were processed

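Read counts per gene symbol were deposited for 17 libraries, and STAR, HTSeq and the builds mm10 and GRCm38.p6 are named per the submitters' processing notes. The annotation and strand setting are not given in the sources used here. The authors also deposited RPKM values, which equalled the counts divided by the library total and 1 length per gene. Libraries were grouped by genotype and temperature from their labels. Each library is 1 mouse, and the number of mice limits the precision. Depth was 18410748 to 47598200 counts per library.

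Counts were filtered by group with edgeR 4.0.16 in R 4.3.3 (12486 genes kept), scaled by TMM and tested by the quasi-likelihood test with terms for group and sex (12 residual degrees of freedom). Benjamini-Hochberg adjustment ran over all genes kept, with a threshold of 0.05. The SE is the absolute log2 fold change over the root of F. Alternatives used DESeq2 1.42.0, limma 3.58.1 on log2(RPKM + 1) and log2(RPKM + 0.1), other covariates, no filter, and each library left out. The analysis was tested on simulated data. These drew each gene separately, without a sex effect or shifts shared by genes within a library, so they do not cover such shifts. The members and lists were chosen with earlier results of these data known. Values in every library are given for the 3 members with the highest RPKM, up to 14 called members with the largest change in the cold, up to 3 with the largest fall, Hsf1 and Hsf2, and for the others ranges or fold changes. Summing Hspa1a and Hspa1b, and repeating the count of members at an unadjusted p, were chosen after seeing the data. Locations and exon overlaps come from GENCODE vM21.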

Additional observations from a re-analysis of the deposited data

Results flagged for a closer look

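Of 144 values examined (36 members in 4 groups), 11 had 1 library far from the others of its group by Dixon's test at the 95% level, which chance gives in about 1 of 20 groups. Among wild types at 22 °C, replicate 2 stood high for Hspa1a (0.981 CPM against 0.197 to 0.228), Hspa4l (83.5 against 49.4 to 52.8) and Hsph1 (81.4 against 44.9 to 49.5). This is the library with high Ppargc1a. Among wild types at 6 °C, replicate 4 stood low for Ahsa1 (62.5 CPM against 88.2 to 95.4).

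Among knockouts at 22 °C, replicate 1 stood low for Trap1 (154 CPM against 172 to 174) and Hspb8 (32.6 against 46.9 to 47.9), replicate 2 stood low for Stip1 (33.4 against 41.8 to 42.6), and replicate 4 stood high for Dnaja2 (88.6 against 61.5 to 65.3). Among knockouts at 6 °C, replicate 3 stood high for Dnajb1 (42.1 CPM against 29.2 to 30.0), Bag3 (98.4 against 78.0 to 79.9) and Ptges3 (47.1 against 31.4 to 33.3). No cause of these values was tested.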

How the results depend on the processing

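Over the settings that kept all libraries, 21 to 24 members were higher in wild types and 17 to 21 in knockouts, and 0 were called between genotypes. Leaving out single libraries gave 22 to 25 and 18 to 21 higher, 0 to 1 lower in wild types (Hspa14 without replicate 3 at 6 °C, -0.39, adjusted p = 0.0411) and 0 to 1 lower in knockouts. On log2(RPKM + 1) and log2(RPKM + 0.1), 1 member, Hspa14, was lower in wild types under each. All genes higher in wild types numbered 881 and 854 there, and genes lower 3115 and 2959, with 22.0% and 22.4% of calls higher against 51.8%. In knockouts the share was 41.3% and 42.5% against 53.6%. Within the majority sex of each genotype, 1063 genes were lower in wild types, and 936 were higher and 711 lower in knockouts. Between genotypes at 22 °C, 2 genes were called in the reported fit, 4 without the sex term, 4 and 4 on RPKM, 10 with DESeq2 and 1 to 3 without single libraries. At 6 °C there were 5, 3 with labelled age, 3 on log2(RPKM + 1), 12 with DESeq2 and 3 to 5 without single libraries. The cause of these shifts was not tested.

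With the replicate number as a block, 24 and 20 members were higher, 12 were lower in knockouts at 6 °C at an unadjusted p, and 0 genes were called at 22 °C. Deviations of same-numbered libraries from their group means gave correlations of both signs (11 of 24 over 0.1, range -0.418 to 0.439). Differently numbered libraries were not compared, so these values cannot decide whether the numbers mark pairs. The reported fit did not take them as pairs. The count of 15 lower at 6 °C was 12 to 17 over the other settings and 10 to 18 without single libraries.

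Members near 0 that were not called changed sign under some settings. In wild types Trap1 was -0.0640 and -0.0648 and Dnaja3 -0.0627 and -0.0639 on the 2 RPKM scales, Hspb7 -0.0050 and Cryab -0.0012 on log2(RPKM + 1), Hspb6 0.10 with the replicate block, and Hspb7 -0.34 and Hsf1 0.0149 within the majority sex. Without single libraries Hspb6 ranged from -0.33 to 0.24, Hspb7 from -0.48 to 0.84, Cryab from -0.0454 to 0.35 and Hsf1 from -0.12 to 0.0608. In knockouts Trap1 was -0.0350 and -0.0358, Dnaja3 -0.0403 and -0.0412 and Cryab -0.0178 and -0.0267 on the RPKM scales, and Trap1 -0.0071, Cryab -0.42 and Dnajb5 -0.0866 within the majority sex. Fkbp4 was 0.0032 with DESeq2's size factors, 0.0096 with labelled age and 0.0037 with DESeq2. Without single libraries Hspb6 ranged from -0.59 to 0.0422, Cryab from -0.32 to 0.44, Dnaja3 from -0.0039 to 0.0903, Dnajb5 from -0.0123 to 0.30, Fkbp4 from -0.0563 to 0.0824 and Hsf1 from -0.15 to 0.13. Depth limits the rarest members: the controls held 73 and 25 reads of Hspa1a and 118 and 43 of Hspa1b in wild types and knockouts.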
